A study of Mus musculus with 6 samples.

Results

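Complement components and regulators were followed in a mouse astrocyte line after pulsed radiofrequency (PRF), an electrical stimulation given in short high-frequency bursts and used against neuropathic pain. The 9 genes are C3, C4b, Cfb, Cfd, C1ra, Cfi, Serping1, Cd55 and C3ar1, out of 22911 genes named on the array, and every probe whose transcript accession belongs to one of them was taken, which gave 15 probes of 56605. RNA came from C8-D1A cells, a single cloned line, so the arrays carry cells of 1 clone and no neurons or microglia were added. The PRF group was stimulated cells (3 arrays) and the Control group was cells left untreated (3 arrays). Both groups had grown for 6 days in medium with 10% serum and then spent 24 h without serum. The labels speak of 3 independent experiments. The sources used here do not state the settings or length of the stimulation, or how long after it RNA was taken.

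Complement is a cascade of secreted proteases whose central step is the cleavage of C3, followed by cleavage of C5 and assembly of the membrane attack complex. The classical pathway starts from C1q with its proteases C1r and C1s, the lectin pathway from sugar-binding collectins, and both cut C4 and C2. The alternative pathway works through factor B, factor D and properdin, and amplifies the others. Host cells hold the cascade back with soluble inhibitors (factor I, C1 inhibitor) and with membrane proteins such as CD55 and CD59. Fragments of C3 and C5 signal through C3aR and the C5a receptors. In the nervous system astrocytes are a known source of C3, which is widely used as a marker of a reactive state, and complement tags synapses for removal by microglia.

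RefSeq promoter windows on GRCm38.p6 were matched for 5 of the 9 genes (C3, Cfd, C1ra, Cd55 and C3ar1). Each is here the 250 bases before an annotated start. C3 and Cfd are shown because a probe of each passed upward. C3ar1, whose RNA stayed below detection, is shown for its motif matches. Cd55, also below detection, matched no motif and is not printed. Its window lies inside the annotated span of the gene, so it is not the sequence before the gene's outermost start. Capitals mark letters that match one of the motifs named next.
C3, chr17:57228137-57228386, minus strand: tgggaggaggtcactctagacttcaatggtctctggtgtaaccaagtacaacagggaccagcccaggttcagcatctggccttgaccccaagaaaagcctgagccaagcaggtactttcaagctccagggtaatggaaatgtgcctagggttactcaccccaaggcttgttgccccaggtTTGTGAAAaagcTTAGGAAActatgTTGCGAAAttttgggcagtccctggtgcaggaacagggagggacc
Cfd, chr10:79890603-79890852, plus strand: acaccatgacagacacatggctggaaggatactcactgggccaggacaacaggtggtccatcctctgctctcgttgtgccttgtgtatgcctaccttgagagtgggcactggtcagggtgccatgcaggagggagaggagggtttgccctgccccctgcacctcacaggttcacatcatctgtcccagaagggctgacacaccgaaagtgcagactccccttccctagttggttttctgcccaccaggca
C3ar1, chr6:122856158-122856407, minus strand: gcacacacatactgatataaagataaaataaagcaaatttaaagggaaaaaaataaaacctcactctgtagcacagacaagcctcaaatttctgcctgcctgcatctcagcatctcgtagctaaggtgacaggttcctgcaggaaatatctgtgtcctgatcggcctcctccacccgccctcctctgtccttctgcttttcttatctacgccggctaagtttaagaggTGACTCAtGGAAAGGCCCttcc

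Both strands were searched for TTNNGNAA (C/EBP-type, the pattern of a family of inflammation-responsive factors), TGANTCA (AP-1), TTCNNNGAA (STAT-type), an NF-kB-type pattern (GGG and TTTCC, 2 bases apart) and a heat shock element (GAA, TTC and GAA, each 2 bases apart). The C3 window held 3 C/EBP-type matches, beginning 70, 58 and 45 bases before the start (positions -70, -58 and -45). A C/EBP-type match is common and stood in 36.8% of 32851 windows of this length. The Cfd and Cd55 windows matched none of the 5 patterns. In C3ar1 an AP-1 match began at -22 and an NF-kB-type match at -14, patterns found in 6.75% and 1.41% of all windows. The C1ra window, not printed, held 2 C/EBP-type matches, at -72 and -29. STAT-type and heat shock element matches, present in 7.02% and 0.466% of all windows, were seen in none of the 5. A match here is a string of letters and not a measured binding site.

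More probes were detected on every PRF array than on any Control array. Between 62.1% and 63.9% of probes were well above background (the scanner software's own flag) on the PRF arrays and between 59.5% and 61.2% on the Control arrays. Over the tested probes, arrays of the same group correlated at 0.994 to 0.997 and arrays of different groups at 0.959 to 0.977. All 6 arrays lay on 1 slide. Astrocyte markers were well above background on all 6 arrays for 10 of 12 genes, Gfap, Aqp4, S100b and Vim among them, but Slc1a3 and Gja1 were not on any array. The astrocyte list summed to between 189 and 194 in PRF cells and between 166 and 179 in Control cells, in units of the 75th percentile of each array. Most of that sum was Vim and S100b. Of 8 oligodendrocyte lineage markers 7 were also well above background on all 6 arrays. Below, a level is the log2 signal minus the 75th percentile of its array. A probe entered the limma test when all 3 arrays of one group or the other carried that flag, and it passed at a Benjamini-Hochberg adjusted p below 0.05 over all 34838 tested probes. Levels of different probes cannot be set against each other, and the p-values measure only the spread between these arrays.

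C3 rose in PRF cells on both of its probes, Cfd was detected in PRF cells alone, and none of the 5 genes that could be tested fell. Of the 15 probes 7 were tested, covering 5 genes (C3, C4b, Cfd, C1ra and Serping1), and 4 probes passed, all upward: both C3 probes, 1 of 2 C4b probes and 1 Cfd probe. Across the array 31.1% of tested probes passed, 18.4% upward and 12.7% downward. The groups did not overlap for the same 4 of the 7 probes, as for 50.2% of all tested probes. Counted by the probe with the highest mean, 2 of the 5 tested genes passed, both upward, where 29.7% of 15063 tested genes passed and 16.3% did so upward. One of the 2 was Cfd, which entered the test only through its PRF arrays, and with a filter asking for detection on all 6 arrays C3 alone passed. Cfb, Cfi, Cd55 and C3ar1 had no probe well above background on any array, so they were not tested. In this bulk RNA, a change in the share of cells and a change in RNA per cell cannot be told apart.

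**Figure D1:**
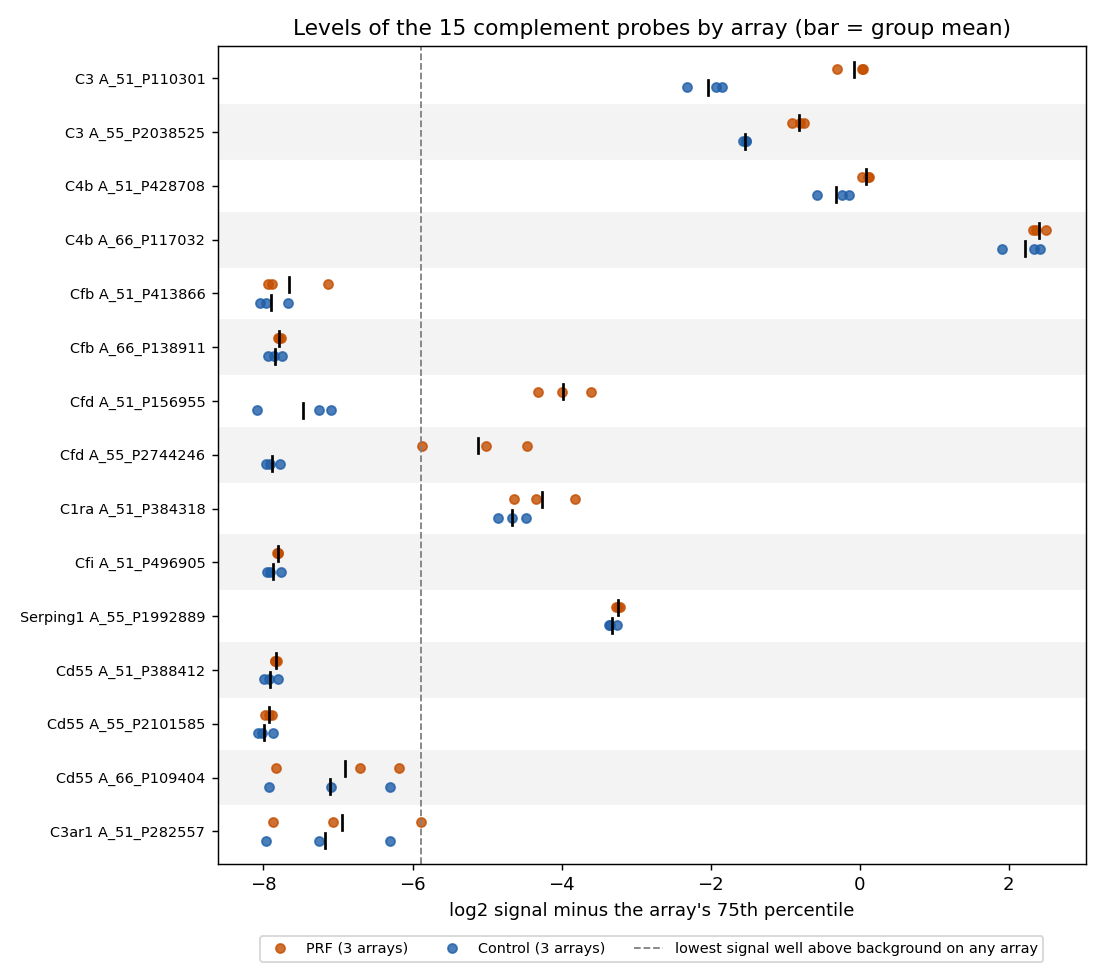
Each row is 1 probe of the 9 genes. Points are the 3 PRF arrays (upper) and the 3 Control arrays (lower), the black bar is the group mean, and the x axis is the log2 signal minus the 75th percentile of the array. The PRF points lie wholly to the right of the Control points for both C3 probes, both Cfd probes and 1 C4b probe, and the probes of Cfb, Cfi, Cd55 and C3ar1 sit at or left of the dashed line of lowest detected signal.

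C3 encodes the protein on which all complement pathways converge. Its first probe (A_51_P110301) had levels of 0.05, 0.03 and -0.30 on PRF arrays 1 to 3, against -1.93, -1.85 and -2.32 on Control arrays 1 to 3. As scanner intensities before scaling these were 655, 557 and 448 in PRF cells and 177, 177 and 119 in Control cells. The groups did not overlap, and the third array was the lowest in each. The difference was 1.96 on the log2 scale (SE 0.16, 95% interval 1.58 to 2.34, limma adjusted p = 4.47e-04), or 3.89-fold.

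The second C3 probe (A_55_P2038525), designed to the same transcript, had levels of -0.75, -0.80 and -0.91 in PRF cells and -1.56, -1.53 and -1.52 in Control cells. Again the groups stood apart, with a smaller difference of 0.72 (SE 0.07, 95% interval 0.55 to 0.89, limma adjusted p = 8.86e-04), or 1.64-fold. Subtracting the second probe from the first within each array gave 0.80, 0.83 and 0.61 in PRF cells and -0.37, -0.32 and -0.81 in Control cells. The probes thus put the rise at different sizes by 1.24 on the log2 scale (exact two-sided permutation p = 0.1, the smallest that 3 against 3 arrays allow). The direction of the C3 change rests on both probes, and its size on the choice of probe.

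Of all 34838 tested probes, 4.25% differed by as much as the first C3 probe or more in the upward direction, and 11.6% by as much as the second. Each array row of the slide leaves one group with 1 array, whose spread is taken from the other. Within array row 1 (PRF array 2, Control arrays 1 and 3) the differences were 2.16 for the first probe (adjusted p = 0.0206) and 0.74 for the second (adjusted p = 0.0533). Within row 2 (PRF arrays 1 and 3, Control array 2) they were 1.72 (adjusted p = 0.0708) and 0.70 (adjusted p = 0.167). Only 162 probes of the whole array passed within row 2.

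The tested genes whose 6 levels, each centred on its own mean, lay nearest to those of C3 were Elavl3, Tas1r2, Aoc3, Hils1 and Islr2, at Euclidean distances of 0.15, 0.19, 0.21, 0.22 and 0.25 over 6 arrays. Their own log2 differences were 1.94, 1.89, 2.07, 2.03 and 2.13. They were the nearest of 15055 genes, and choosing by distance by itself brings their differences close to that of C3.

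**Figure D2:**
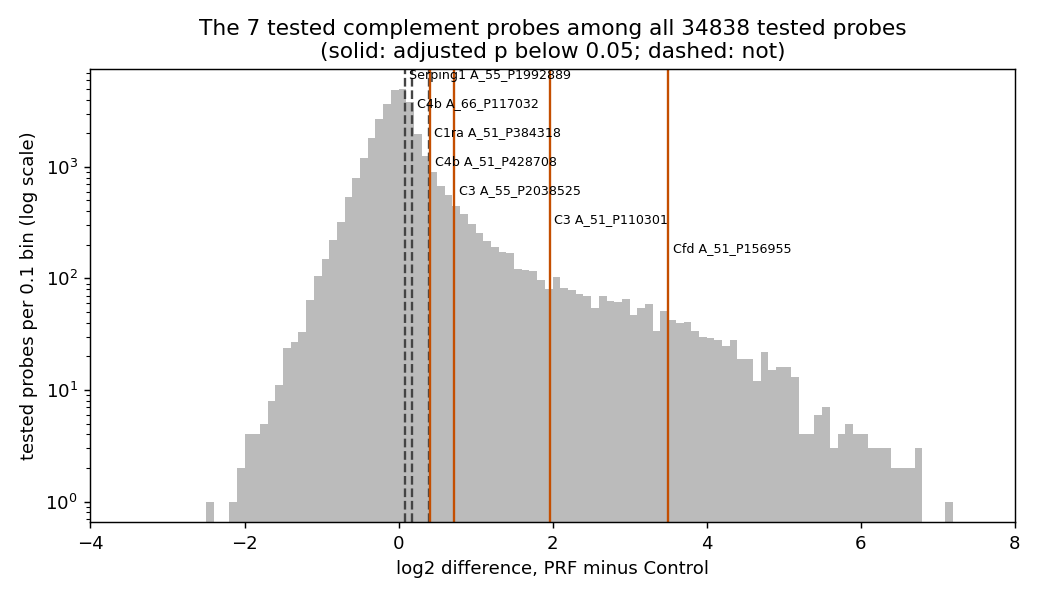
Histogram of the log2 difference, PRF minus Control, over all 34838 tested probes, with the count per bin on a log axis. Vertical lines are the 7 tested complement probes, solid where the adjusted p was below 0.05. The first C3 probe, at 1.96, lies in the right tail, the Cfd line is a fitted value against undetected Control levels, and the others lie nearer to the bulk of probes.

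C4b encodes complement C4, which the classical and lectin pathways cleave. The probe A_51_P428708 had levels of 0.11, 0.13 and 0.03 in PRF cells and -0.15, -0.24 and -0.57 in Control cells, with no overlap. It passed narrowly, with a difference of 0.41 (SE 0.12, limma adjusted p = 0.0426). The call was lost without any 1 array except Control array 1 (adjusted p from 0.0556 to 0.117), on the deposited scale (0.27, adjusted p = 0.267) and with spike-in scaling (0.21, adjusted p = 0.191). It was also lost with array row as a block (0.40, adjusted p = 0.093), with no filter (adjusted p = 0.0896) and with the median of tested probes as scale (0.36, adjusted p = 0.0631).

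The brighter C4b probe, A_66_P117032, had levels of 2.37, 2.50 and 2.33 in PRF cells and 2.42, 2.34 and 1.91 in Control cells. These overlapped, and the difference of 0.18 (95% interval -0.17 to 0.52, limma adjusted p = 0.386) did not pass and was -0.02 with spike-in scaling. C4b has a near-identical copy, C4a, whose RNA these probes may also bind, so the split between them is uncertain. The C4a probe averaged -2.83 ± 0.16 in PRF cells and -3.20 ± 0.41 in Control cells (SD, n = 3 each, limma adjusted p = 0.22).

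C1ra encodes the C1r protease of the classical pathway. It had levels of -3.82, -4.64 and -4.34 in PRF cells and -4.48, -4.85 and -4.66 in Control cells. PRF array 1 stood above all others and the other PRF arrays lay within or close to the Control range. The difference of 0.40 (95% interval -0.12 to 0.92, limma adjusted p = 0.208) did not pass, and it was -0.07 within array row 1 and 0.77 within row 2.

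Factor D, the serine protease that starts the alternative pathway and that is best known as adipsin from fat cells, is encoded by Cfd. The probe A_51_P156955 had levels of -3.61, -4.32 and -4.0 on the PRF arrays, all well above background, against -7.25, -8.08 and -7.09 on the Control arrays, none of which was. The groups were far apart, but the Control levels are only bounds. Set against the lowest detected signal of the Control arrays, Cfd was at least 3.47-fold higher in PRF cells. The limma adjusted p of 5.52e-04 belongs to the fitted difference of 3.50 against undetected Control levels and does not test this bound. The signals were small throughout, at intensities of 51.9, 27.3 and 34.5 in PRF cells and 4.43, 2.35 and 4.37 in Control cells. The fitted difference was 2.85 within array row 1 and 4.27 within row 2, both resting on undetected Control levels. With normexp background correction, which adds an offset of 50, the fitted difference of 3.50 became 0.81. Against signals this small, such an offset by itself shrinks a log2 difference.

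The second Cfd probe (A_55_P2744246) had levels of -4.47, -5.01 and -5.87 in PRF cells and -7.96, -7.91 and -7.78 in Control cells. It was well above background on PRF arrays 1 and 2 only and therefore was not tested. With the remaining PRF array also undetected, its fold could not be bounded. Both probes thus read the same order of groups. Dim probes that became detectable in PRF cells were frequent on these arrays. Of 21071 probes that no Control array detected, 5.38% were well above background on all PRF arrays, while 0.417% of 19206 probes made the opposite move. The filter let the first Cfd probe into the test only because it was bright in PRF cells.

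Factor B, the other alternative pathway protease, is encoded by Cfb and is a classic acute phase gene. Its probes had levels from -7.94 to -7.14 in PRF cells and from -8.04 to -7.67 in Control cells. No array was well above background. RNA for factor B, the substrate of factor D, was thus not detectable above background in either group.

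Among the regulators, Serping1 encodes the C1 inhibitor, which blocks C1r and C1s and is also used as a marker of reactive astrocytes. Its levels were -3.21, -3.27 and -3.24 in PRF cells and -3.26, -3.36 and -3.35 in Control cells. The groups overlapped and the difference of 0.08 (95% interval -0.07 to 0.23, limma adjusted p = 0.362) did not pass. Quantile normalization turned its sign (-0.18), as did spike-in scaling (-0.11) and the values as deposited (-0.06).

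Cfi encodes factor I, the protease that inactivates C3b and C4b, and its levels ran from -7.82 to -7.80 in PRF cells and from -7.95 to -7.77 in Control cells. The Cd55 probes, for the decay-accelerating factor of cell membranes, ran from -7.98 to -6.18 in PRF cells and from -8.07 to -6.30 in Control cells. C3ar1, the receptor for the C3a fragment that is best known from myeloid cells, ran from -7.87 to -5.89 in PRF cells and from -7.97 to -6.30 in Control cells. All 5 probes of these genes were below the detection flag on all 6 arrays, and the groups overlapped for each. Values this close to the scanner floor carry no order. Probes well above background on no array had a median difference of 0.075, against 0.018 for tested probes.

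Beyond these genes, a list of 52 other complement genes was read in the same fit. Of its 24 tested members 11 rose and 1 fell, where 16.3% of all tested genes rose and 13.5% fell. With the filter asking for detection on all 6 arrays, 10 rose. Their median difference was 0.34 on the log2 scale, against 0.40 for the 5 tested genes above and -0.006 for all tested genes. The remaining 28 were not tested, 23 of them with no probe well above background on any array, including C1qc. In 16 of the 24 the groups did not overlap, as in 51.1% of all tested genes.

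The classical and lectin pathway genes of the list held 5 of the rises, among 9 tested, where 16.3% of all tested genes rose. The differences of 8 of these 9 lay above 0. C1s1 and C1s2, which encode the C1s protease, averaged -3.18 ± 0.38 and -3.32 ± 0.48 in PRF cells, against -4.67 ± 0.38 and -4.94 ± 0.28 in Control cells (SD, n = 3 each). They were 2.82-fold and 3.08-fold higher (limma adjusted p = 0.00665 and 0.0057). As close paralogs they may share signal. Colec11, a collectin of the lectin pathway, was 2.88-fold higher (limma adjusted p = 0.00378), Colec10 1.62-fold (limma adjusted p = 0.0158) and Colec12, a scavenger receptor collectin, 1.23-fold (limma adjusted p = 0.0259). Colec12 lost its call without any 1 array except PRF array 3. It also lost it with array row as a block (0.30, adjusted p = 0.0533), with no filter (adjusted p = 0.0546), as deposited (0.15, adjusted p = 0.402) and after quantile normalization (0.20, adjusted p = 0.075). Spike-in scaling gave 0.10 (adjusted p = 0.352). Colec10 lost its call without PRF array 2 or Control array 3 and with quantile normalization (0.45, adjusted p = 0.0689). C1qb, a chain of C1q, averaged -4.02 ± 0.25 in PRF cells and -4.26 ± 0.11 in Control cells (SD, n = 3 each, limma adjusted p = 0.24).

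Cfp encodes properdin, which stabilises the alternative pathway convertase. It averaged 1.48 ± 0.08 in PRF cells and 1.01 ± 0.04 in Control cells (SD, n = 3 each), 1.38-fold higher (limma adjusted p = 0.00427), and its second probe also rose (1.45-fold, limma adjusted p = 0.0048). Of the membrane attack complex genes 2 of 6 were tested and neither passed.

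Regulators outside the 9 genes were mixed. Clu, for clusterin, which binds the membrane attack complex, was 1.46-fold higher (limma adjusted p = 0.00326), and Cd59b, an inhibitor of the same complex, 1.80-fold (limma adjusted p = 0.00953). Its sister gene Cd59a had a difference of 0.17 on its brighter probe and 0.19 on the other, neither past the threshold (limma adjusted p = 0.0694 and 0.0762). Cr1l, the mouse regulator known as Crry, averaged 3.38 in PRF cells and 3.34 in Control cells on its brighter probe (limma adjusted p = 0.649). Cd46, the membrane cofactor protein, fell by 0.49 on its brighter probe (SE 0.09, limma adjusted p = 0.00858). The other Cd46 probe differed by 0.19 in the opposite direction and did not pass (limma adjusted p = 0.383), and the fall lost its call with normexp (-0.18, adjusted p = 0.149).

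Of the receptors 3 of 5 tested rose, where 16.3% of all tested genes did. C5ar2, the second receptor for C5a, had levels of 2.41, 1.99 and 1.51 in PRF cells and -1.69, -1.97 and -1.81 in Control cells. It was 13.9-fold higher (95% interval 3.26 to 4.33 on the log2 scale, limma adjusted p = 1.53e-04), and its Control levels were well above background. Itgax, the alpha chain of complement receptor 4, was detected on no Control array and was at least 6.88-fold higher in PRF cells. The limma adjusted p of 0.00318 belongs to its fitted difference against undetected Control levels and does not test this bound. Like Cfd, Itgax entered the test only because it was bright in PRF cells. Its second probe was below the detection flag on all 6 arrays. Itgam, the alpha chain of complement receptor 3, was 1.81-fold higher on one probe (limma adjusted p = 0.00406) and 1.55-fold on the other (limma adjusted p = 0.0381).

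With normexp the log2 differences were smaller for C1s1 (0.69), C1s2 (0.64), Colec11 (0.89), Colec10 (0.37), Cd59b (0.39), Clu (0.34) and Itgax (1.02), each still past the threshold, Itgax again against undetected Control levels. The offset of 50 in normexp by itself shrinks log2 differences of dim probes, Cd46 among them. Spike-in scaling gave 0.28 for Cfp and 0.35 for Clu, and quantile normalization 0.52 for Cd59b and -0.78 for Cd46, also past the threshold.

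**Figure D3:**
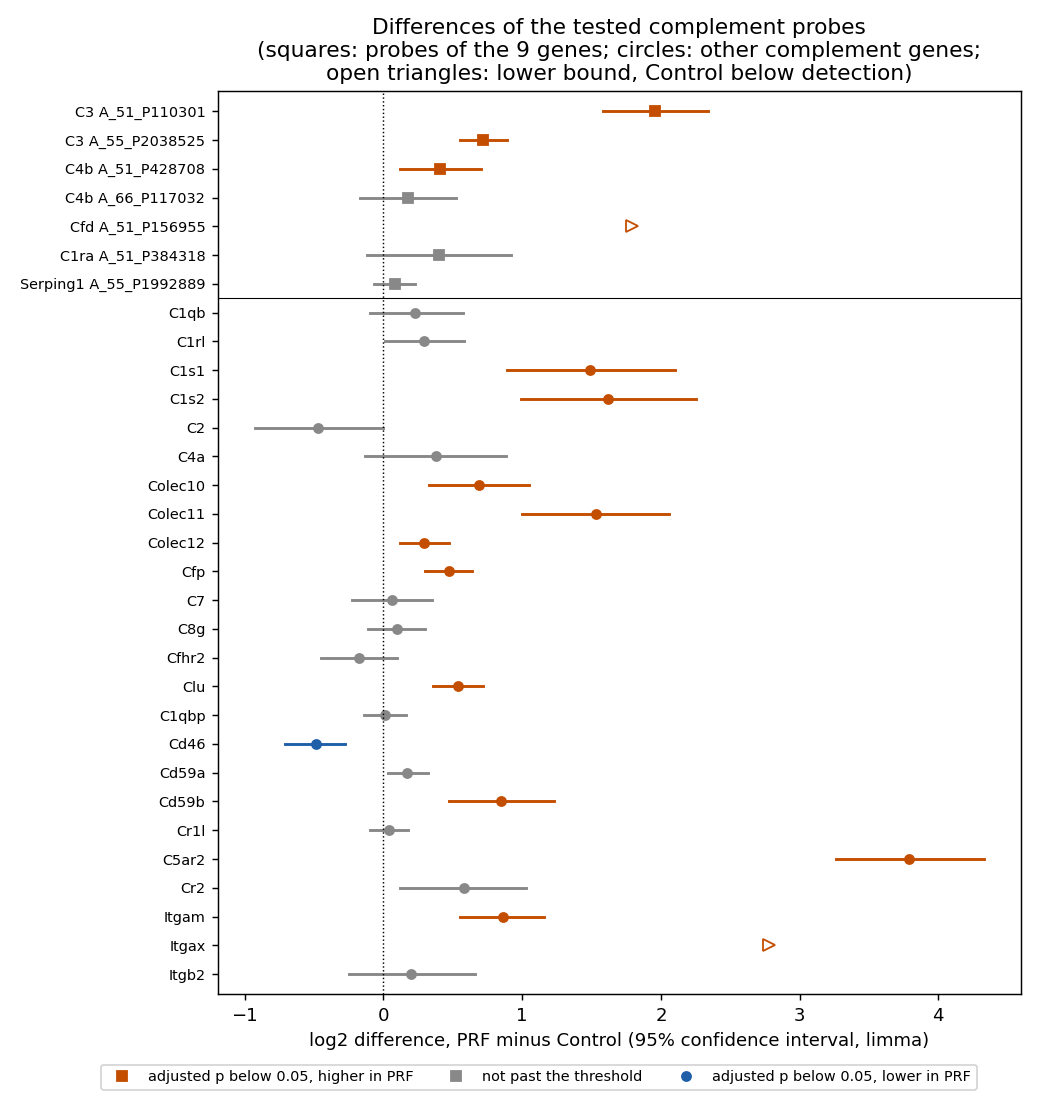
Log2 difference, PRF minus Control, with its 95% confidence interval for the 7 tested probes of the 9 genes (squares) and the brightest probe of 24 other tested complement genes (circles). Open triangles are Cfd and Itgax, whose Control arrays were all below detection: they mark the lower bound and carry no interval. Orange marks genes past the adjusted threshold and higher in PRF cells, blue the 1 gene that was lower (Cd46), and grey those not past it. C5ar2, at 3.79, lies far to the right of its neighbours.

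Markers of other cells were read beside these genes because Itgam, Itgax and C3ar1 are typical of myeloid cells. Of 12 microglia and macrophage markers 6 were well above background on all 6 arrays, and Cx3cr1, P2ry12, Aif1, Ptprc and Trem2 were not on any. The summed linear level of the list, in units of the 75th percentile, ran from 18.9 to 23.8 in PRF cells and from 13.1 to 14.2 in Control cells. Without Itgam and C1qa, which belong to complement, it ran from 6.33 to 6.57 in PRF cells and from 4.75 to 6.02 in Control cells. Of the microglia and macrophage list 2 genes rose on their brightest probe, Itgam and Fcer1g (1.23-fold). The dimmer Csf1r probe fell by 0.30 (limma adjusted p = 0.018), while the brighter differed by 0.16 without passing. Tmem119 (-0.25) and Cd68 (0.36 on its brighter probe) did not pass (limma adjusted p = 0.0601 and 0.0577). Of 5 neutrophil markers on the array 3 rose, where 16.3% of all tested genes did: S100a8 (3.49-fold), Mpo (2.14-fold) and Csf3r (1.26-fold). Mpo was well above background on only 1 Control array and entered the test through its PRF arrays, so its fold rests partly on undetected levels. Elane differed by 0.03 on the log2 scale, and S100a9 was not detected and so not tested. The neutrophil sum ran from 141 to 170 in PRF cells and from 118 to 133 in Control cells, and most of it was Csf3r. The neuron list ran from 23.8 to 28.3 in PRF cells and from 22.7 to 25.6 in Control cells, the oligodendrocyte lineage list from 126 to 142 in PRF cells and from 136 to 146 in Control cells, and the fibroblast list from 3.62 to 4.21 in PRF cells and from 3.58 to 3.98 in Control cells. In the fibroblast list Col1a2 (6.57-fold), Col3a1 (1.43-fold) and Col1a1 (1.36-fold) rose and Pdgfrb fell by 0.32. Like Mpo, Col1a2 was well above background on only 1 Control array and entered the test through its PRF arrays. Endothelial markers summed to between 0.185 and 0.218 in PRF cells and between 0.147 and 0.153 in Control cells. Kdr, undetected in Control cells, was at least 2.4-fold higher, Pecam1 differed by -0.09 without passing, and Cdh5, Cldn5 and Tie1 were not detected. Mbp and Snap25 rose (1.99-fold and 1.96-fold), and Mog and Sox10 fell by 0.40 and 0.36. The part of these shifts in the complement values was not tested.

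**Figure D4:**
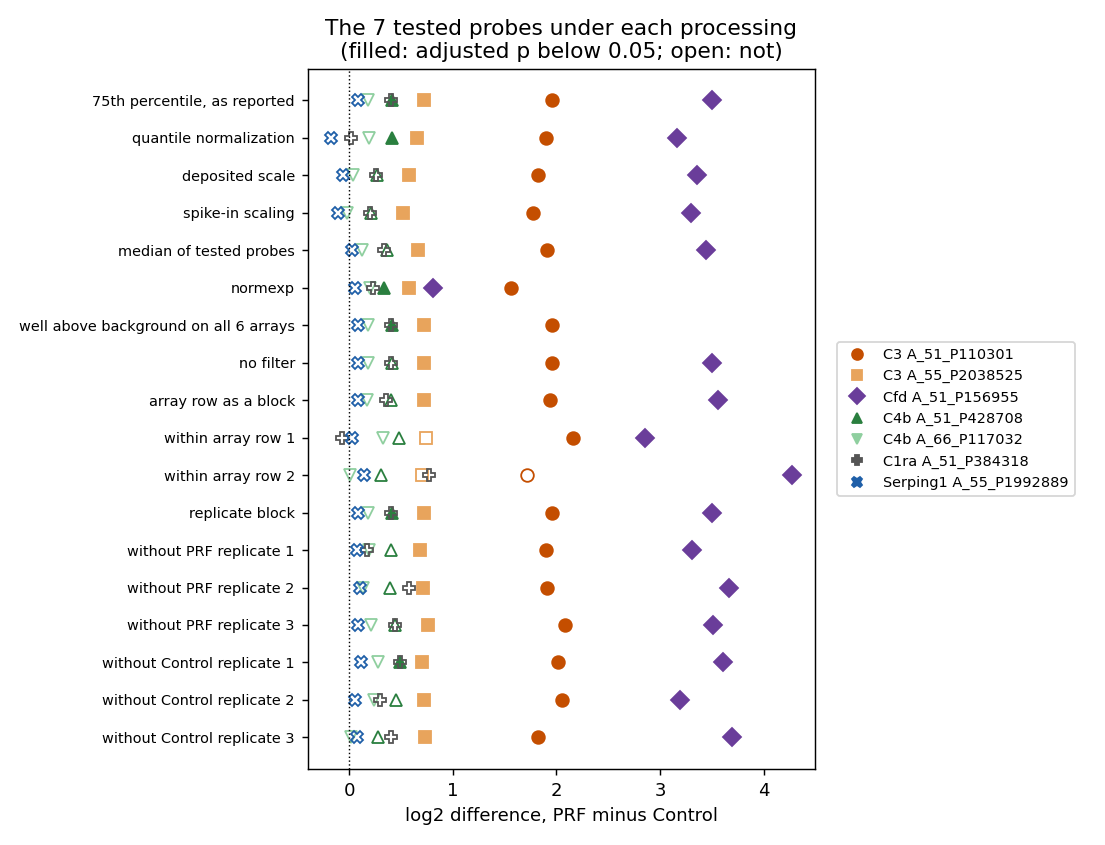
Log2 difference of the 7 tested probes (x axis) under the reported processing and each alternative (rows). Cfd values are fitted against undetected Control levels. Filled symbols passed the adjusted threshold and open ones did not. Both C3 probes stay right of 0 in every row. Cfd, which entered the test through its PRF arrays alone, does so in every row in which it was fitted. It shrinks to 0.81 with normexp background correction (offset 50). The Serping1, C1ra and brighter C4b symbols each cross 0 under some alternative.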

How the data were processed

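Total RNA of 6 samples (3 PRF, 3 Control; RNA integrity 9.5 or above, per the labels) was labelled with Cy3 and read on one-colour Agilent arrays. Per the file headers, the deposited intensity values come from version 10.7.3.1 of Agilent's Feature Extraction, background-subtracted but not scaled between arrays. The flags (other values of 0 or 1) are per the file headers too. The authors' deposited series table equalled these intensities. Here, outlier and control spots were left out, spots of a probe were averaged on the log2 scale, and the 75th percentile of each array was subtracted from the log2 values computed from the deposited intensities. limma 3.58.1 in R 4.3.3 was fitted with group as the only term. Probes were named through RefSeq transcripts of GRCm38.p6 (32994 of 56605 matched). Arrays were designed on mm9, so gene coordinates come from RefSeq alone. Named genes were the 9 genes, every called gene of the wider complement list and a fixed set of its other members (1 of which is not reported here), plus the 5 genes nearest to C3. Members and lists were chosen with earlier results of these data known. The fit was run on simulated arrays with independent noise, few changed probes and no shift between arrays. In the data 31.1% of tested probes passed. That run does not bear on the choice of scale. Replicates of the same number were not treated as paired. Deviations from group means correlated at 0.145, -0.0838 and 0.0458 for same-numbered arrays and from -0.174 to 0.132 for the other pairs. So few arrays cannot exclude a pairing. With 3 arrays per group, their number limits the precision. The normexp alternative used an offset of 50 and the median spot signal, since the files used here hold no mean signal.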

Additional observations from a re-analysis of the deposited data

Results flagged for a closer look

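Signals outside the tests were seen for 5 complement probes that were well above background on some PRF arrays and on no Control array. The second Cfd probe differed by 2.76 on the log2 scale, with 2 PRF arrays above background. C1qa (2.12) and C5ar1 (2.0) did so on PRF array 1 alone. Their other 5 levels were below detection, so these differences have no measured size. C1rb (0.30, PRF array 1) and Hc, which encodes C5 (0.85, PRF array 2), had overlapping groups. These differences were not part of the fit, since the probes did not pass the filter on dim signals.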

How the results depend on the processing

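Both C3 probes kept their upward direction under every alternative. Cfd did so wherever it could be fitted, but it entered the test through its PRF arrays alone. No Control array detected it, so its kept direction adds no support. Within array row 2 the fitted difference was 1.72 for the first C3 probe and 4.27 for Cfd, which the 1 Control array there did not detect. Of the 9 genes 2 passed upward as reported. Only C3 passed where all 6 arrays had to be well above background, a filter that removes Cfd. Without 1 array in turn 2 passed each time, and 3 genes passed when any probe of a gene sufficed. The wider list had 11 rises as reported, 5 within array row 1, 0 within row 2 (where 6588 probes had an unadjusted p below 0.05), and 9 to 13 without 1 array. Over all probes 10833 passed as reported (59.2% of them higher), 16466 with spike-in scaling (28.2% higher), 3209 within row 1, 162 within row 2 and 7220 to 10684 without 1 array (7220 without PRF replicate 2). The share of rises was 38.3% for values as deposited, 41.4% after quantile normalization, 49.5% with the median of tested probes as scale and 67.7% with no filter. The median of tested probes was 0.018 as reported, -0.123 as deposited and -0.177 after spike-in scaling. Signs turned for the brighter C4b probe with spike-in scaling (-0.02), C1ra within row 1 (-0.07), Serping1 with quantile normalization (-0.18), with spike-in scaling (-0.11), as deposited and in the series table (-0.06 each), C1qb with quantile normalization (-0.12), Cd59a with spike-in scaling (-0.02), and Cr1l as deposited and in the series table (-0.10 each), with spike-in scaling (-0.16) and with the median of tested probes (-0.02); none of these had passed, and the cause was not tested. With the replicate block, counts of 2 genes, 11 rises and 9422 probes passed, and none of the 22 probes refitted singly (the 7 tested probes of the 9 genes and 15 of the wider list) changed its call. Array row 1 holds 1 PRF array and row 2 holds 1 Control array, each assumed to vary like the others. Dim signal limits Cfd, Cfb, Cfi, Cd55 and C3ar1.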
